A study of Mus musculus with 6 samples.

Results

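The replication-dependent histone genes were described by type in mouse bone marrow cells sorted as haematopoietic stem and progenitor cells. In their RNA the neutrophil and granulocyte markers summed far above the stem and progenitor markers, with values given below. The replication-dependent histone genes are defined as follows. They are the genes of the linker histone H1 and of the core histones H2A, H2B, H3 and H4 whose products package newly copied DNA. They were chosen by gene symbol (H1f1 to H1f6, and any H2ac, H2bc, H3c or H4c symbol), with the replication-independent linker gene H1f0 left out. The rule found 51 of the 18491 genes in the deposited table, 5 for H1, 12 for H2A, 13 for H2B, 11 for H3 and 10 for H4. In mice they lie mostly in clusters, here 45 on chromosome 13 and 6 on chromosome 3.

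RNA from bone marrow cells sorted by flow cytometry was sequenced in 3 Robo1 knockout (KO) and 3 wild-type (WT) libraries. Per the design text, Robo1, which encodes a receptor for Slit guidance proteins, was deleted with Mx1-cre after 3 doses of poly(I:C), and per the labels' protocol cells were sorted 8 months after that injection. Mx1-cre is switched on by interferon, so that deletion takes place in the blood system and in other interferon-responsive cells. The labels do not say whether the WT mice carried Mx1-cre, nor whether the libraries of a group came from separate animals, so the p-values rest on library-to-library spread, part or all of which may be technical. The labels also conflict, since titles and the genotype and treatment fields describe shRNA controls and knockdowns, and the treatment given for the KO libraries is a knockdown of ROBO1, of ROBO2 and of ROBO3, one each. Groups follow the description field, which reads KO or WT with a replicate number.

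Histone genes of this kind are transcribed mainly in S phase, when a cell needs histones for the DNA it copies, and their transcripts have no introns. Their mRNAs end in a conserved stem-loop in place of a poly(A) tail. The stem-loop binding protein SLBP holds the stem-loop, and the U7 small nuclear ribonucleoprotein directs the cut behind it. The library kit named in the labels selects poly(A) RNA in its standard form, and the labels record no other selection. How far the mRNAs counted here carried a poly(A) tail was not measured.

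A 16-base stem-loop was found in the annotated transcripts of 35 of the 51 genes, between 21 and 46 bases past the stop codon (GENCODE vM21, GRCm38). The sequences shown are examples from each type, with the stem-loop in capitals and 5 bases on each side.
H1f2: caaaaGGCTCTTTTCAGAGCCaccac
H2ac11: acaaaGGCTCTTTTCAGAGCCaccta
H2bc11: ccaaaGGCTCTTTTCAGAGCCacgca
H2bc12: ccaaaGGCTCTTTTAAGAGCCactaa
H3c4: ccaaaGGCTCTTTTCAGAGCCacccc
H3c8: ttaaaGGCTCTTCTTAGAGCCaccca
H4c4: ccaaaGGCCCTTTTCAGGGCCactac
The H2A, H1 and H3c4 examples carried the same 16 letters as H2bc11, whereas H2bc12, H3c8 and H4c4 each differed. The annotated transcript stopped within 100 bases of the stem-loop in 16 genes and ran on for more than 100 bases in 19. The other 16 had no match in the annotated transcript, which need not mean that the gene lacks a stem-loop. Some of these annotations are short, such as 312 bases for H4c12 and 411 for H3c11.

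Upstream sequence is shown for 4 genes that the results turn on, credited to RefSeq (GRCm38.p6). H1f2 and H4c12 were called higher in KO under both scalings used below, H2bc14 was the 1 gene called lower under both, and H2bc12 did not differ beyond its error with composition scaling although its neighbour H2ac12 did. In GENCODE vM21 (GRCm38) the gene bodies span chr13:23738808-23740367 (H1f2, plus strand), chr13:21750194-21750505 (H4c12, minus strand), chr13:21722044-21722567 (H2bc14, plus strand) and chr13:22035870-22036345 (H2bc12, plus strand), each a single annotated transcript. The 250 bases before each RefSeq start lie at chr13:23738557-23738806 (plus strand), chr13:21750554-21750803 (minus strand), chr13:21721794-21722043 (plus strand) and chr13:22035571-22035820 (plus strand). Capitals mark matches on either strand to 5 motifs, of which none contains another. They are the octamer ATTTGCAT, known from H2B promoters and bound by the POU factor Oct1, and CCAAT, the box bound by the trimeric factor NF-Y. The next are TATAAA, which positions the transcription start, and the H1 promoter element AAACACA. The last is GGTCCG, which belongs to an element of H4 promoters.
H1f2: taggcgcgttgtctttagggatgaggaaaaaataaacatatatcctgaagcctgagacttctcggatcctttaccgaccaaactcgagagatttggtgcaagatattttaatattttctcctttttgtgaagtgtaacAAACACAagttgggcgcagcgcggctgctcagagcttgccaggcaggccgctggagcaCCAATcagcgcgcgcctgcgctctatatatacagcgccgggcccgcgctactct
H4c12: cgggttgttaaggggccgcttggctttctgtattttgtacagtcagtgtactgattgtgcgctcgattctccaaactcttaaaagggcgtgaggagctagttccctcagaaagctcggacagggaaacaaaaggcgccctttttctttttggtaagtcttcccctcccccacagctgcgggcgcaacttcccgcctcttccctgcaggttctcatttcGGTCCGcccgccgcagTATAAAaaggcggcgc
H2bc14: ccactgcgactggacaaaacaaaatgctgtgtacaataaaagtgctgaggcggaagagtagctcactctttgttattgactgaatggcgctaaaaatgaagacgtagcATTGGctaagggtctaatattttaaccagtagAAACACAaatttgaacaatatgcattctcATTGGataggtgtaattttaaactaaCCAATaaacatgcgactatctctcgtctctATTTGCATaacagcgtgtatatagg
H2bc12: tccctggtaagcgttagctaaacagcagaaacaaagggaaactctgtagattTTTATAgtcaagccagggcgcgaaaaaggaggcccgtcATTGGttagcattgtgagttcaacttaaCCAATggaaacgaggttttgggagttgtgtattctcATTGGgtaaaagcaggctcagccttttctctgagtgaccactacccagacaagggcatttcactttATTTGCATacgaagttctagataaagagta
Promoters of 300 bases, 250 before and 50 after the start, were on hand for 45 of the 51 genes (46 sequences). The octamer was found in 5 of 11 H2A and 6 of 12 H2B promoters and in 0 of the H1, H3 and H4 promoters, against 1.74% of 32851 promoters of all genes. GGTCCG was found in 8 of 9 H4 promoters (8.25% of all promoters) and AAACACA in 4 of 5 H1 promoters (7.18%). CCAAT was found in each H1, H2A, H2B and H3 promoter and in 3 of 9 H4 promoters (37.4% of all promoters). TATAAA was found in 4 of 5 H1, 8 of 11 H2A, 6 of 12 H2B, 4 of 9 H3 and 6 of 9 H4 promoters (13.6% of all promoters). Both strands were searched, and windows of neighbouring H2A and H2B genes can overlap, so a match may belong to the neighbour.

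Libraries held 42235077 to 57058267 counts in KO and 44578916 to 58106099 in WT. The scaling decides most directions below. TMM, which assumes that most genes do not differ, gave factors of 0.660 to 0.685 in KO and 1.44 to 1.52 in WT. With TMM the median log2 fold change of 15474 genes tested was -0.09, and with total counts it was -1.22. Neutrophil and granulocyte markers summed to 268836 to 284815 CPM (counts scaled to a fixed library size) in KO and 86612 to 97002 in WT, and eosinophil and basophil markers to 47992 to 53701 in KO and 7840 to 9148 in WT, both with TMM. Stem and progenitor markers, among them Kit and Cd34, summed to 144 to 147 CPM in KO and 151 to 157 CPM in WT. Erythroid markers summed to 3062 to 3648 CPM in KO and 972 to 1256 CPM in WT, and monocyte and macrophage markers to 2985 to 3376 CPM in KO and 802 to 897 CPM in WT. B lineage markers summed to 1024 to 1221 CPM in KO and 714 to 808 CPM in WT, and T and NK markers to 9.61 to 10.5 CPM in KO and 15 to 16.7 CPM in WT. The sums rest on a few abundant genes. With TMM 8 of 10 neutrophil and granulocyte markers and 7 of 10 eosinophil and basophil markers were called higher in KO and 0 lower. Of the erythroid markers 3 were called higher, 2 lower and 5 not called (median log2 fold change 0.19), and of the monocyte and macrophage markers 2 higher, 1 lower and 7 not called (0.052). Of the B lineage markers 1 was called higher, 5 lower and 4 not called (-0.17), and the higher one, Jchain, averaged 993 CPM in KO and 641 CPM in WT. Of the stem and progenitor markers 3 of 10 were called lower, and of the T and NK markers 1 of 7, with 0 higher in both. All genes tested gave 17.2% higher and 14.4% lower with TMM. No listed marker of these cell types that was in the table was at 0 in every library. The part of these cells in the histone values was not tested, and in bulk RNA fewer cells of a type and less RNA per cell cannot be told apart. Robo1 was not analysed here. Its relatives Robo3 and Robo4 gave 16 to 58 and 0 to 28 counts in KO, and 35 to 95 and 6 to 26 counts in WT.

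With TMM scaling all 5 histone types were called higher in KO cells when their genes were summed, and with total counts none was called higher. H2A differed most with TMM, at 2.82-fold, followed by H4 at 2.25-fold, H1 at 1.71-fold, H2B at 1.58-fold and H3 at 1.52-fold. With total counts H2B and H3 were lower in KO and H1, H2A and H4 did not pass the test. Each type stood above the median gene (-0.09) with TMM. A change of scaling moves all genes by nearly the same amount. The same position with total counts (median gene at -1.22) is therefore no second check. An offset for gene length and GC content brought the log2 fold changes down to 0.56 for H1 (edgeR adjusted p = 0.0337), 0.72 for H2A (0.0282) and 0.61 for H4 (0.0204), which were still called higher in KO. H2B, at 0.066 (adjusted p = 0.544, edgeR), and H3, at 0.056 (adjusted p = 0.798), lost their calls with it. All 5 types summed together came to 1.31 with TMM (adjusted p = 0.00336, edgeR) and to 0.59 with the offset (adjusted p = 0.0407). The order of the types also rested on single genes. Without the most abundant gene of each type the TMM log2 fold changes were 1.48 for H2A, 1.05 for H1, 0.75 for H3, 0.61 for H4 and 0.35 for H2B, so that H4 came after H1 and H3.

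H2A, whose genes made up most histone counts, summed to 2027, 1556 and 780 CPM (TMM) in the KO libraries, against 658, 444 and 448 CPM in the WT libraries. Each KO library lay above each WT library, with KO replicate 3 nearest to WT replicate 1. The log2 fold change was 1.49 (SE 0.30, edgeR quasi-likelihood test, adjusted p = 0.00463). With total counts the values were 1338, 1066 and 530 CPM in KO, against 945, 673 and 668 CPM in WT. Those groups overlapped, with a log2 fold change of 0.36 (standard error, SE, 0.28, adjusted p = 0.262, edgeR).

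H4, which pairs with H3 at the centre of the nucleosome, summed to 209, 194 and 129 CPM (TMM) in KO, against 93.0, 72.1 and 71.6 CPM in WT. The groups did not overlap. The log2 fold change was 1.17 (SE 0.17, adjusted p = 0.000783, edgeR) with TMM, and 0.04 (SE 0.16, adjusted p = 0.838, edgeR) with total counts.

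H1, the linker histone that binds DNA where it enters and leaves the nucleosome, summed to 89.2, 52.3 and 55.8 CPM (TMM) in KO, against 39.7, 37.7 and 38.5 CPM in WT. KO replicate 1 stood above the other libraries. The log2 fold change was 0.77 (SE 0.18, adjusted p = 0.00956, edgeR) with TMM, and -0.37 (SE 0.17, adjusted p = 0.0701, edgeR) with total counts. The KO replicate 2 sum lacks H1f4, which was listed at 0 there. Without H1f4 the H1 log2 fold change was 0.91 with TMM (adjusted p = 0.000372, edgeR), a comparison added after seeing the data.

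H2B, the partner of H2A in the nucleosome, summed to 204, 205 and 177 CPM (TMM) in KO, against 134, 118 and 119 CPM in WT. Its KO libraries varied least among the 5 types relative to their mean. The log2 fold change was 0.66 (SE 0.08, adjusted p = 0.000242, edgeR) with TMM. With total counts the values were 134, 141 and 121 CPM in KO, against 192, 179 and 178 CPM in WT. There each KO library lay below each WT library, with a log2 fold change of -0.47 (SE 0.07 and adjusted p = 0.000287, edgeR).

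H3 was the type with the fewest counts, at 34.7, 29.98 and 22.4 CPM (TMM) in KO, against 21.5, 17.5 and 18.3 CPM in WT. The lowest KO library lay just above the highest WT library. The log2 fold change was 0.61 (SE 0.15, adjusted p = 0.0152, edgeR) with TMM, and -0.53 (SE 0.15, adjusted p = 0.00869, edgeR) with total counts. The TMM call was lost without KO replicate 1 (log2 fold change 0.46, adjusted p = 0.0516, edgeR) and without KO replicate 2 (0.58, adjusted p = 0.0536). It was also lost without WT replicate 2 (0.56, adjusted p = 0.0640, edgeR) and without WT replicate 3 (0.59, adjusted p = 0.0559).

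**Figure D1:**
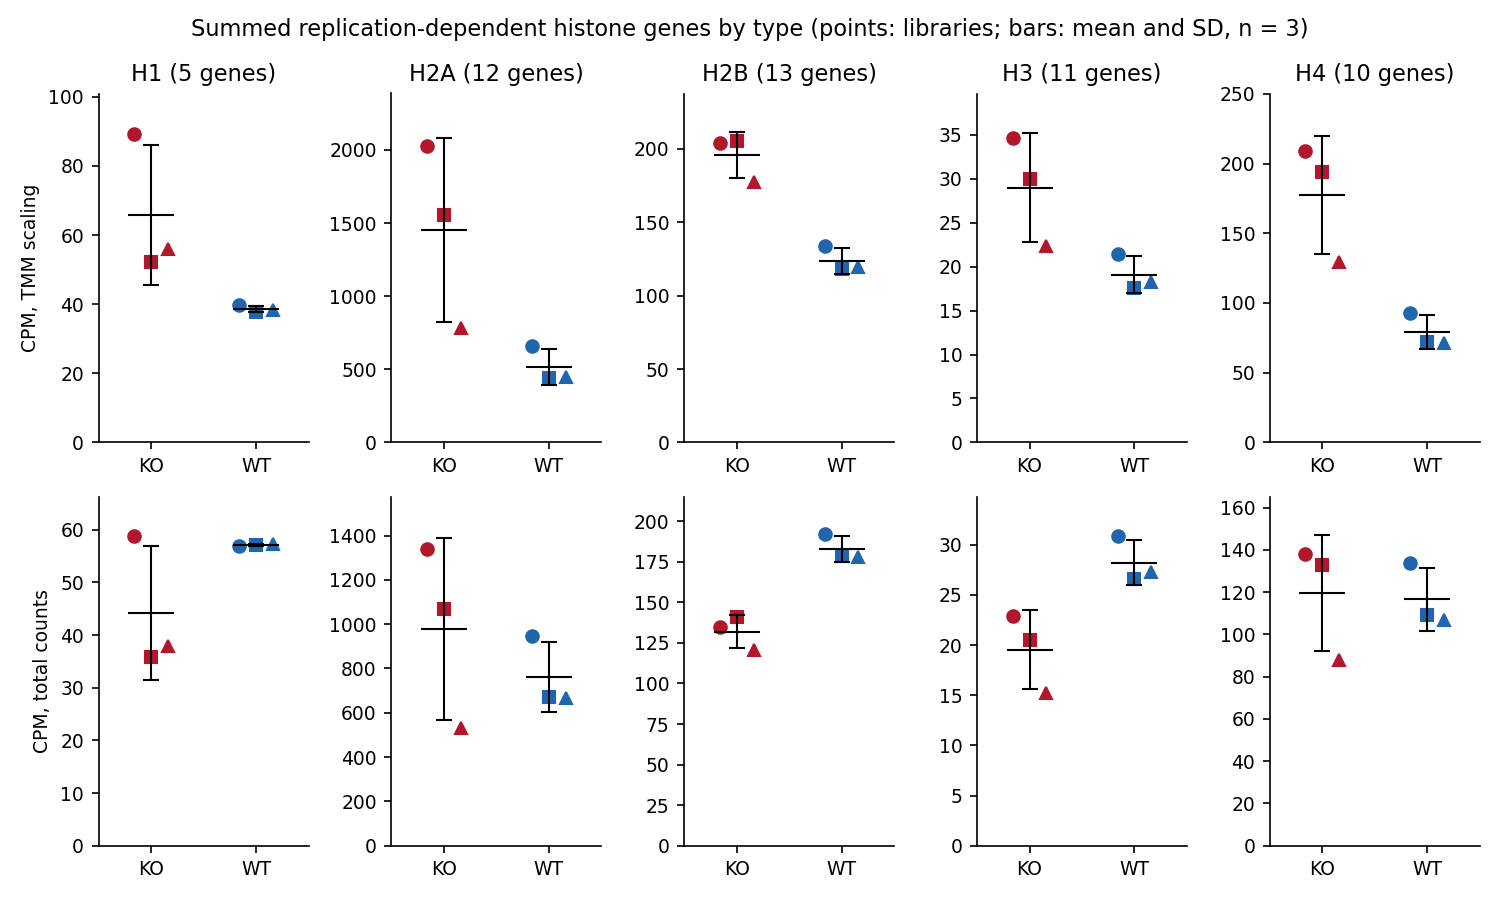
Summed CPM of each histone type in each library, with TMM scaling in the upper row and total counts in the lower row (points, libraries, where circle, square and triangle are replicates 1, 2 and 3; bars, mean and SD). With TMM the KO libraries lie above the WT libraries in each of the 5 types, and with total counts they lie below them for H2B and H3 and overlap them for H1, H2A and H4.

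Taken gene by gene, 27 of the 50 tested histone genes were called higher in KO with TMM and 1 lower, while 22 were not called (adjusted p under 0.05). Of all genes tested, 17.2% were called higher and 14.4% lower, 31.7% in all. With total counts 2 histone genes were called higher, 14 lower and 34 not called, against 4.23% higher, 70.7% lower and 74.9% in all among the genes tested. The median log2 fold change of the 50 genes was 0.997 with TMM and -0.14 with total counts, against -0.09 and -1.22 for all genes. With the length and GC offset 10 of the 50 histone genes were called higher and 6 lower. Of the 15474 genes tested, 2316 were called higher and 2363 lower with that offset. The median log2 fold change of the histone genes was then 0.15, against -0.10 for all genes. By type that median was 0.31 for H1, 0.49 for H2A, -0.19 for H2B, 0.11 for H3 and -0.087 for H4. KO libraries lay wholly above WT libraries for 28 of the 50 with TMM (22.2% of all genes tested) and wholly below for 1 (24.4%). With total counts those numbers were 2 (4.85%) and 16 (76.1%). H2bc1, a testis H2B gene, had 3 to 9 counts in KO and 4 to 14 in WT and was not tested.

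**Figure D2:**
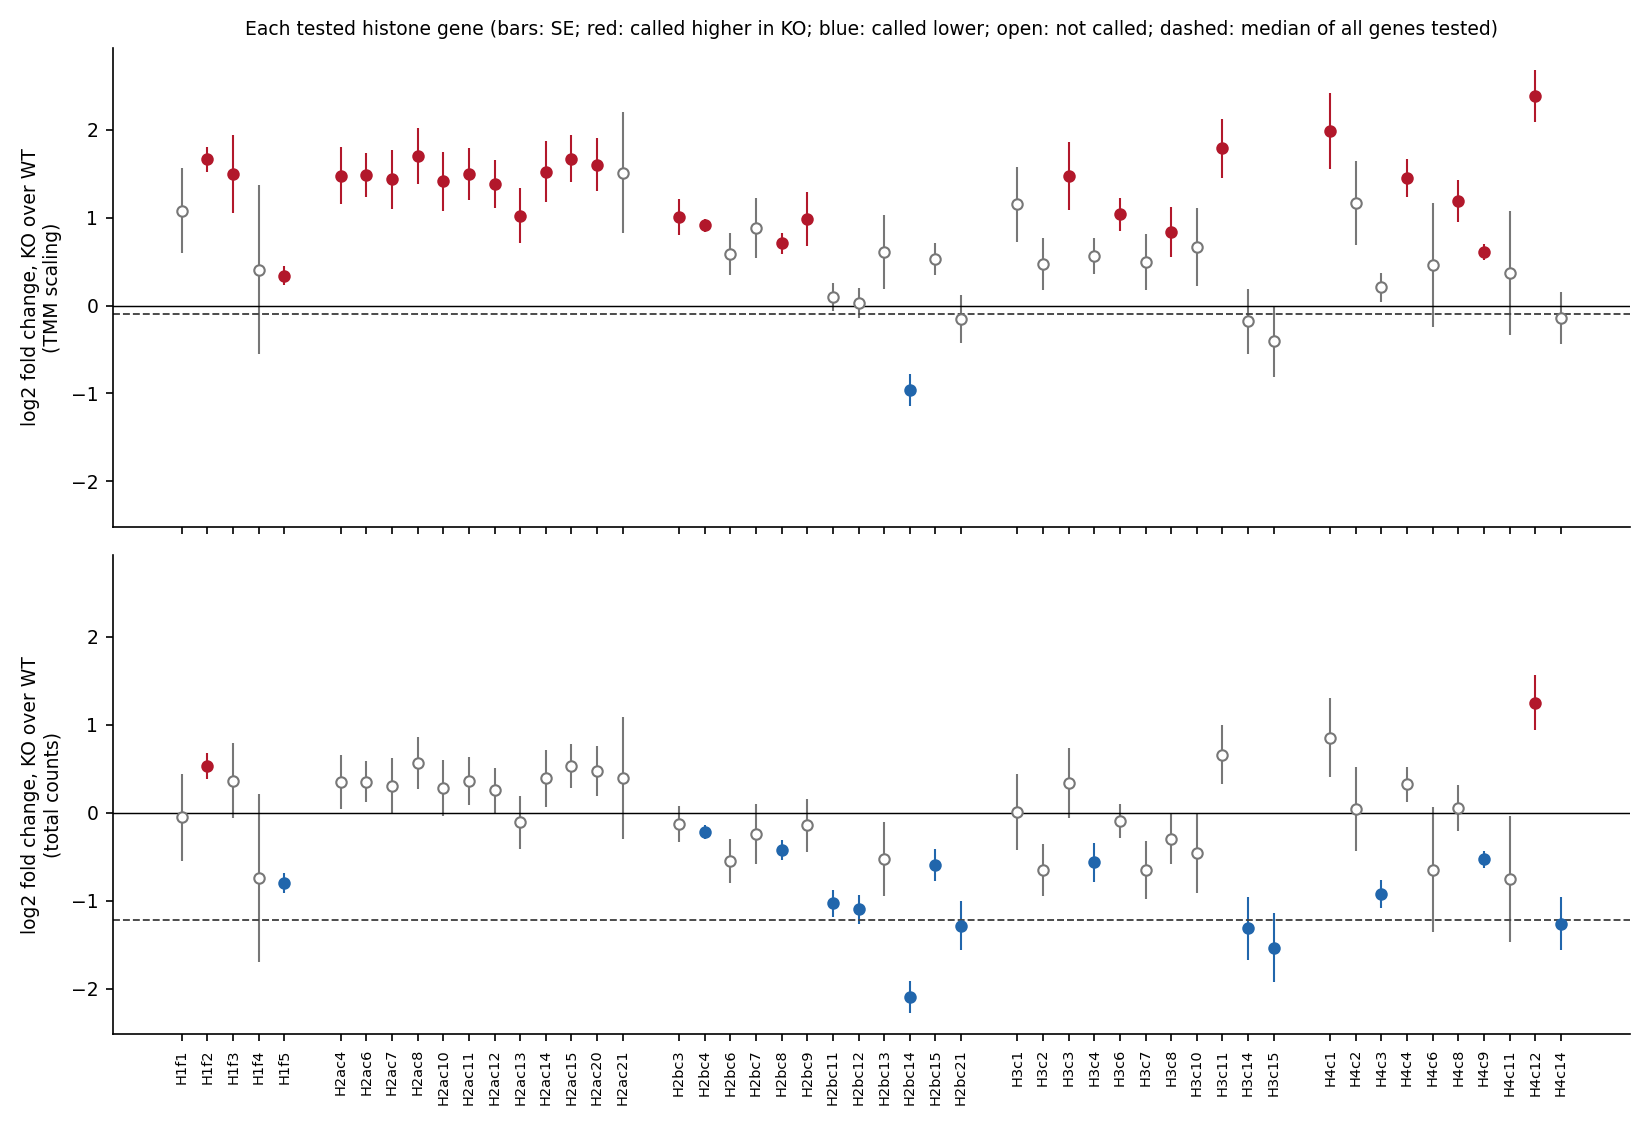
Log2 fold change (KO over WT) of each of the 50 tested histone genes with TMM scaling (upper) and total counts (lower), with SE bars, the call by colour and the median of all genes tested as a dashed line. The H2A genes sit between 1.02 and 1.70 with TMM, whereas the H2B genes run from -0.96 to 1.01, and with total counts most genes sit above the dashed line at -1.22 and below or near 0.

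Each H2A gene had a log2 fold change above 1 with TMM, where 11 of 12 were called higher, with a median log2 fold change of 1.49. With total counts 0 of 12 were called in either direction and the median was 0.36. All genes tested gave 17.2% higher with TMM and 74.9% called in either direction with total counts. H2ac14 had 606, 448 and 203 CPM (TMM) in KO, against 193, 123 and 121 CPM in WT, a log2 fold change of 1.52 (SE 0.35 and adjusted p = 0.00865, edgeR). It is annotated as an unprocessed pseudogene and shared 92.5% of its 75-base sequences with other genes, so its counts may belong in part to others. H2ac11, which had the same stem-loop as H2bc11, had 560, 411 and 212 CPM in KO, against 168, 127 and 124 CPM in WT. Its log2 fold change was 1.5 (SE 0.29, adjusted p = 0.00404, edgeR). H2ac12 had 329, 274 and 144 CPM in KO, against 119, 76.2 and 90.5 CPM in WT, with a log2 fold change of 1.39 (SE 0.27 and adjusted p = 0.00422, edgeR). In each of these 3 genes KO replicate 3 was the lowest KO library and WT replicate 1 the highest WT library, and the groups did not overlap.

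H2ac8 had the highest H2A log2 fold change, 1.70 (SE 0.32, adjusted p = 0.00318, edgeR), with 187, 143 and 70.9 CPM (TMM) in KO, against 53.6, 38.4 and 31.3 CPM in WT. H2ac6 had the same order of KO libraries, at 132, 99.9 and 59.7 CPM in KO, against 42, 31 and 31.1 CPM in WT (log2 fold change 1.49, SE 0.25, adjusted p = 0.00172, edgeR). H2ac13 had the lowest, 1.02 (SE 0.32, adjusted p = 0.0349, edgeR), with 27.1, 23.2 and 11.1 CPM in KO, against 13.9, 8.33 and 8.20 CPM in WT. Its groups overlapped through KO replicate 3. H2ac21, the 1 H2A gene not called, had 11, 44 and 86 counts in KO and 40, 32 and 48 counts in WT. It was named after its values were seen.

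Per length, on the deposited FPKM scale, the highest H2A levels stood far above the highest of the other types. For the genes named here, differences between KO and WT on this scale followed total counts and not TMM. H2ac14 averaged 667 ± 317 FPKM in KO and 507 ± 120 FPKM in WT (SD, n = 3 each). H2ac11 averaged 456 ± 197 FPKM in KO and 354 ± 47.8 FPKM in WT, and H2ac12 345 ± 129 FPKM in KO and 288 ± 53.8 FPKM in WT. H2ac11 shared 77.6% and H2ac12 91.5% of their 75-base sequences with other genes, so their levels may belong in part to others. The H4 gene of highest level, H4c4, averaged 63.8 ± 18.1 FPKM in KO and 51.0 ± 7.80 FPKM in WT, and the highest H2B gene, H2bc4, 57.1 ± 3.86 FPKM in KO and 66.5 ± 2.44 FPKM in WT. H1f5, the highest H1 gene, averaged 16.7 ± 2.03 FPKM in KO and 28.9 ± 1.82 FPKM in WT. Both H1f5 and H2bc4 were thus lower in KO in FPKM, as with total counts (log2 fold changes of -0.80 and -0.22). With TMM both were called higher in KO (0.34 and 0.91). H3c11 had the highest H3 mean in KO, 4.40 ± 1.27 FPKM, against 2.79 ± 0.83 FPKM in WT.

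**Figure D3:**
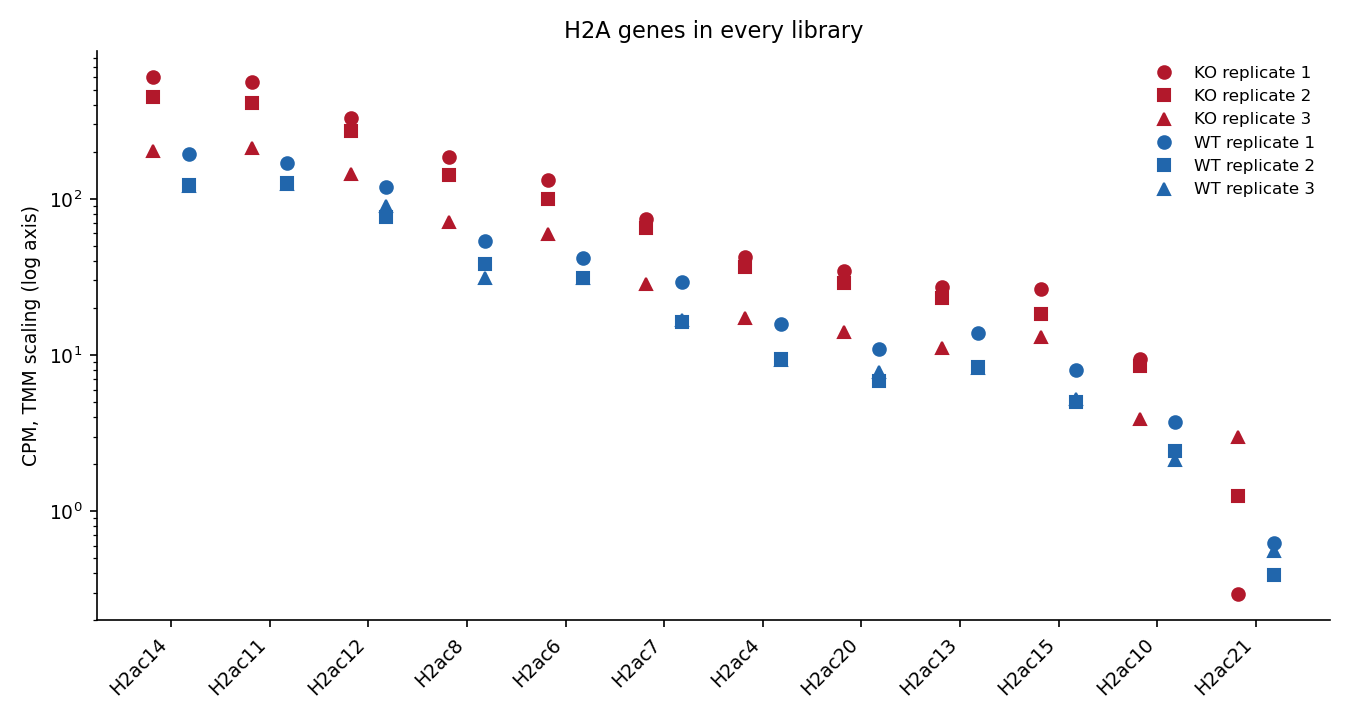
CPM (TMM, log axis) of the 12 H2A genes in every library, ordered by mean level, with KO to the left of WT for each gene and a marker shape for each replicate. KO replicate 3 is the lowest KO library in 11 of the 12 genes and WT replicate 1 the highest WT library in all 12. H2ac21, at the low end, has its KO libraries in another order.

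The spread among replicates had an order that ran across types. KO replicate 3 was the lowest KO library for 39 of 50 histone genes with counts in every library (78.0%, against 38.0% of all genes), and WT replicate 1 was the highest WT library for 35 (70.0%, against 37.8%). The ratio of the highest to the lowest KO library had a median of 2.45 over H2A genes, 1.55 over H2B genes and 1.319 over all genes. In WT these medians were 1.61, 1.36 and 1.25. The 51 histone genes took 0.169%, 0.140% and 0.0792% of the counts of the KO libraries, against 0.136%, 0.104% and 0.104% of those of the WT libraries. Without KO replicate 3 the log2 fold changes (TMM) of the sums were 0.88 for H1, 1.80 for H2A, 0.73 for H2B, 0.76 for H3 and 1.35 for H4.

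Among the H2B genes 4 of 12 tested were called higher in KO with TMM and 1 lower, against 17.2% and 14.4% of all genes. With total counts 0 were called higher and 7 lower, against 4.23% and 70.7% of all genes. H2bc4, the H2B gene with the most counts, had 118, 125 and 109 CPM (TMM) in KO, against 62.8, 62.5 and 61.4 CPM in WT. The groups stood well apart, with a log2 fold change of 0.91 (SE 0.07 and adjusted p = 1.11e-05, edgeR) with TMM and -0.22 (adjusted p = 0.0237) with total counts. H2bc8 had 33.1, 33.1 and 28.2 CPM in KO, against 22.6, 17.9 and 17.2 CPM in WT, a log2 fold change of 0.71 (SE 0.12 and adjusted p = 0.00205, edgeR) that turned to -0.42 (adjusted p = 0.00868) with total counts. H2bc3 had 6.66, 5.79 and 4.28 CPM in KO, against 3.19, 2.61 and 2.56 CPM in WT (1.01, SE 0.20, edgeR adjusted p = 0.00474, and -0.13 with total counts).

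H2bc14 went the other way, with 4.49, 5.06 and 3.17 CPM (TMM) in KO, against 8.40, 7.79 and 8.65 CPM in WT. Each KO library lay below each WT library. It fell by 0.96 on the log2 scale (SE 0.18, adjusted p = 0.00308, edgeR) with TMM and by 2.09 (adjusted p = 5.56e-06) with total counts. H2bc11 had 16, 14.5 and 12.4 CPM in KO, against 16.6, 11.6 and 12 CPM in WT. H2bc12 had 7.75, 8.14 and 6.41 CPM in KO, against 8.92, 6.12 and 6.84 CPM in WT. In both the groups overlapped with TMM, with log2 fold changes of 0.10 (SE 0.16, adjusted p = 0.693, edgeR) for H2bc11 and 0.03 (SE 0.17, adjusted p = 0.913, edgeR) for H2bc12. With total counts they were lower in KO, at -1.03 for H2bc11 and -1.1 for H2bc12 (edgeR adjusted p = 0.000154 and 0.000218).

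H2A and H2B genes often start back to back around a shared promoter, and 9 such pairs had starts 176 to 302 bases apart. Their count ratio within a library does not depend on scaling, but it carries no offset for gene length and GC content. The mean H2A to H2B ratio was higher in KO than in WT in all 9 pairs, by 0.45 to 2.41 on the log2 scale, and in 6 of the 9 each KO library lay above each WT library. For H2ac14 and H2bc14 the log2 ratio was 7.08, 6.47 and 6 in KO, against 4.52, 3.98 and 3.81 in WT. For H2ac12 and H2bc12, whose upstream sequence is printed above, it was 5.41, 5.07 and 4.49 in KO, against 3.74, 3.64 and 3.73 in WT. For H2ac11 and H2bc11 it was 5.13, 4.82 and 4.10 in KO, against 3.35, 3.45 and 3.37 in WT. In these 3 pairs the lowest KO library stood clear of the WT libraries. For H2ac6 and H2bc4, the pair with the most H2B counts, it was 0.16, -0.32 and -0.86 in KO, against -0.58, -1.01 and -0.98 in WT, and the groups overlapped. The pairs share near-copies, so they are no independent replicates.

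**Figure D4:**
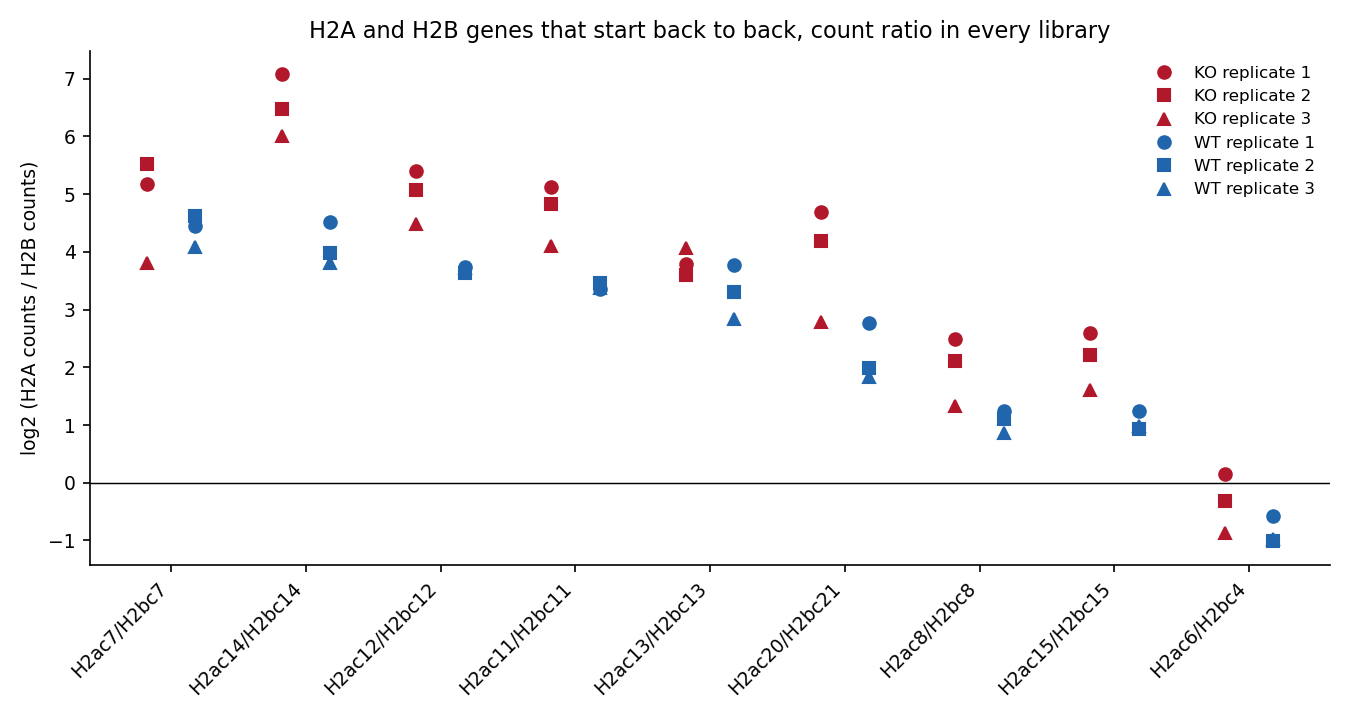
Log2 ratio of H2A to H2B counts in every library for the 9 pairs that start back to back, with KO to the left of WT. KO libraries stand wholly above WT libraries in 6 pairs and overlap them in the pairs H2ac13/H2bc13, H2ac6/H2bc4 and H2ac7/H2bc7.

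Calls were also counted by the octamer. Promoter windows of H2A and H2B genes that start back to back overlap, so the same octamer can count for both genes. With TMM 5 of 5 H2A genes with an octamer in the promoter window and 5 of 6 without one were called higher in KO, with median log2 fold changes of 1.49 and 1.47. Of the H2B genes with an octamer 2 of 5 tested were called higher and 1 lower (median 0.59), and of those without one 1 of 5 was called higher (median 0.61). All genes tested gave 17.2% higher and 14.4% lower. H2bc12 and H2bc14, printed above, both carry the octamer close to the start.

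The H4 genes were dominated by H4c4, which held 72.1 ± 4.53% of H4 counts in KO and 59.6 ± 2.42% in WT (SD, n = 3 each). H4c4 had 159, 142 and 86.7 CPM (TMM) in KO, against 58, 41.5 and 42.2 CPM in WT, a log2 fold change of 1.45 (SE 0.22 and adjusted p = 0.000778, edgeR). With total counts it was 0.32 (adjusted p = 0.167). H4c9 had 27.9, 24.6 and 23.3 CPM in KO, against 16.7, 16.2 and 16.8 CPM in WT. The groups did not overlap, and the log2 fold change was 0.61 (SE 0.09, adjusted p = 0.00101, edgeR) with TMM and -0.53 (adjusted p = 0.000749) with total counts. H4c3 had 9.35, 9.86 and 8.25 CPM in KO, against 9.72, 7.55 and 6.54 CPM in WT, and did not pass with TMM (0.21, adjusted p = 0.383, edgeR). H4c12 had 3.88, 3.25 and 2.23 CPM in KO, against 0.703, 0.525 and 0.566 CPM in WT. It had the highest log2 fold change of the 50 genes, 2.39 (SE 0.30, adjusted p = 0.000265, edgeR), and stayed higher with total counts (1.25, adjusted p = 0.00458). Its counts were 146, 115 and 64 in KO and 45, 43 and 49 in WT, and it shared 68.1% of its 75-base sequences with other genes. In total 5 of 10 H4 genes were called higher with TMM, against 17.2% of all genes. With total counts 1 was called higher and 3 lower, against 4.23% and 70.7% of all genes. H4c8, with 3.61, 4.72 and 3.10 CPM in KO, against 1.53, 2.05 and 1.43 CPM in WT, was among the 5 (1.19, adjusted p = 0.0051, edgeR), and H4c14 on chromosome 3, with 1.81, 3.87 and 2.86 CPM in KO, against 3.98, 2.72 and 2.71 CPM in WT, was not (-0.14, adjusted p = 0.763, edgeR).

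The H1 genes encode different linker histone proteins, and they shared 0 to 28.4% of their 75-base sequences with other genes. H1f2 (histone H1.2) had 24.3, 24.1 and 19.3 CPM (TMM) in KO, against 6.30, 6.74 and 8.29 CPM in WT. The groups stood apart, with a log2 fold change of 1.67 (SE 0.14 and adjusted p = 1.92e-05, edgeR) with TMM and 0.53 (adjusted p = 0.00884) with total counts. H1f5 (histone H1.5) had 24.0, 23.3 and 18.7 CPM in KO, against 17.0, 17.8 and 17.4 CPM in WT. Its log2 fold change was 0.34 (SE 0.11, adjusted p = 0.0406, edgeR) with TMM, and -0.80 (adjusted p = 0.000153) with total counts. H1f2 held 35.9 ± 9.52% of H1 counts in KO and 18.4 ± 2.89% in WT, and H1f5 35.0 ± 8.97% in KO and 45.1 ± 2.2% in WT (SD, n = 3 each). These shares are set in part by H1f4, another H1 gene, which was listed at 0 in KO replicate 2. H1f2 held 27.2, 46.1 and 34.5% in the KO libraries, against 15.9, 17.9 and 21.6% in the WT libraries, and H1f5 26.8, 44.6 and 33.5% in KO, against 42.9, 47.3 and 45.2% in WT, with the high KO value of both in that library.

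H1f3 (histone H1.3) had 6.88, 3.08 and 2.12 CPM (TMM) in KO, against 2.11, 1.1 and 1.11 CPM in WT, with KO replicate 3 just above WT replicate 1 (log2 fold change 1.5, SE 0.44, adjusted p = 0.0299, edgeR). H1f1 (histone H1.1) had 14 to 63 counts in KO and 41 to 56 in WT and was not called (1.08, adjusted p = 0.129, edgeR). H1f4 (histone H1.4) had 1224, 0 and 438 counts in KO, against 871, 941 and 956 counts in WT. Its 0 in KO replicate 2 was 1 of 4 such cases, of which 2 were in that library, where a gene was at 0 in 1 library and had at least 300 counts in each of the others. The annotated gene overlaps H2bc6 on the same strand.

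H3 genes were measured in both clusters. On chromosome 13 H3c11 had 3.58, 3.93 and 2.16 CPM (TMM) in KO, against 1.31, 0.757 and 0.751 CPM in WT (log2 fold change 1.79, SE 0.33, adjusted p = 0.00305, edgeR). H3c6 had 5.28, 5.54 and 4.21 CPM in KO, against 2.80, 2.32 and 2.22 CPM in WT (1.04, SE 0.19, adjusted p = 0.00255, edgeR). Their groups did not overlap, and with total counts their log2 fold changes were 0.66 and -0.09. On chromosome 3 H3c14 had 5.39, 2.88 and 1.88 CPM in KO, against 4.97, 2.69 and 3.95 CPM in WT (-0.18, adjusted p = 0.759, edgeR). H3c15 had 2.89, 2.12 and 0.870 CPM in KO, against 3.44, 1.84 and 2.60 CPM in WT (-0.40, adjusted p = 0.499, edgeR). In both the groups overlapped with TMM, while with total counts both were lower in KO, by -1.31 (H3c14, adjusted p = 0.00768) and -1.54 (H3c15, adjusted p = 0.00569). The 75-base sequences shared with other genes were 78.3% for H3c11, 59.45% for H3c6, 100% for H3c14 and 62.6% for H3c15. Counts of these genes may therefore belong in part to others. H3c4 had 3.40, 4.78 and 4.70 CPM in KO, against 2.70, 3.41 and 2.56 CPM in WT, and was not called with TMM (0.57, adjusted p = 0.0662, edgeR). H3c8 had 4.17, 2.43 and 2.33 CPM in KO, against 1.39, 1.70 and 1.91 CPM in WT (0.84, adjusted p = 0.0496, edgeR). In total 4 of 11 H3 genes were called higher with TMM, against 17.2% of all genes. With total counts 0 were called higher and 3 lower, against 4.23% and 70.7% of all genes.

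By cluster, 26 of 44 tested genes on chromosome 13 were called higher with TMM and 1 lower (median log2 fold change 1.01), and 1 of 6 on chromosome 3, H2ac20, was called higher (median -0.15). The chromosome 3 sum was 46.0, 40.4 and 24.7 CPM (TMM) in KO, against 25.5, 16.2 and 19.8 CPM in WT. H2ac20 made up 34.3, 28.7 and 14.1 CPM of it in KO, and 10.9, 6.81 and 7.77 CPM in WT. Of the 6 genes 2 had a log2 fold change above 0 with TMM, so the sum rests largely on H2ac20. The groups overlapped in the sum through KO replicate 3, with a log2 fold change of 0.86 (SE 0.23 and adjusted p = 0.0186, edgeR). That call was lost without KO replicate 1, KO replicate 2, WT replicate 2 or WT replicate 3, each left out in turn (0.68 to 0.85, edgeR adjusted p = 0.0633 to 0.0752). The chromosome 13 sum had one of 1.319 (SE 0.25, adjusted p = 0.00327, edgeR), and with total counts neither sum passed (0.18 on chromosome 13 and -0.27 on chromosome 3). Transcripts annotated to end within 100 bases of the stem-loop gave 8 of 16 called higher with TMM (median 1.08), and those running on gave 10 of 19 (median 0.61). Those without a stem-loop match in the annotated transcript gave 9 of 15 tested (median 1.08). Of genes sharing under 50% of their 75-base sequences with other genes 17 of 29 tested were called higher (median 0.91), and of the rest 10 of 21 (median 1.04). For all genes tested the TMM shares were 17.2% higher and 14.4% lower (median -0.09).

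Within a library the ratio of one type to another is free of scaling, but the ratios carry no offset for gene length and GC content. With that offset the log2 fold changes of the sums were 0.56 (H1), 0.72 (H2A), 0.066 (H2B), 0.056 (H3) and 0.61 (H4). With TMM alone they were 0.77, 1.49, 0.66, 0.61 and 1.17, so differences between types change with the offset. H2A held 74.1 ± 6.36% of histone counts in KO and 66.1 ± 2.97% in WT, and H2B 11.1 ± 3.75% in KO and 16.1 ± 1.72% in WT (SD, n = 3 each). H4 held 9.59 ± 1.47% in KO and 10.2 ± 0.324% in WT, H1 3.61 ± 1.12% in KO and 5.06 ± 0.754% in WT, and H3 1.58 ± 0.301% in KO and 2.48 ± 0.187% in WT. For H3 over H4 the log2 ratio was -2.59, -2.69 and -2.53 in KO, against -2.11, -2.04 and -1.97 in WT. For H2B over H4 it was -0.04, 0.08 and 0.46 in KO, against 0.52, 0.71 and 0.74 in WT, and for H2A over H3 it was 5.87, 5.70 and 5.12 in KO, against 4.94, 4.66 and 4.62 in WT. In these 3 of 10 ratios the groups did not overlap, with KO minus WT differences of -0.56, -0.49 and 0.83. The two-sided exact permutation p was 0.1 for each, the smallest that 3 against 3 libraries allow, and 0.333 when adjusted over the 10 ratios. The H2A over H2B ratio was 3.31, 2.92 and 2.14 in KO, against 2.30, 1.91 and 1.91 in WT, a difference of 0.75 with overlapping groups (exact permutation p = 0.2). Without the most abundant gene of each type the difference was -0.099 for H3 over H4 (exact permutation p = 0.6) and -0.25 for H2B over H4 (p = 0.1). It was then 1.05 for H2A over H2B, 0.90 for H2A over H3 and 0.80 for H2A over H4 (exact permutation p = 0.1 for each). With all genes the other 6 ratios overlapped, with differences from -0.68 (H1 over H2A) to 0.26 (H2A over H4).

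**Figure D5:**
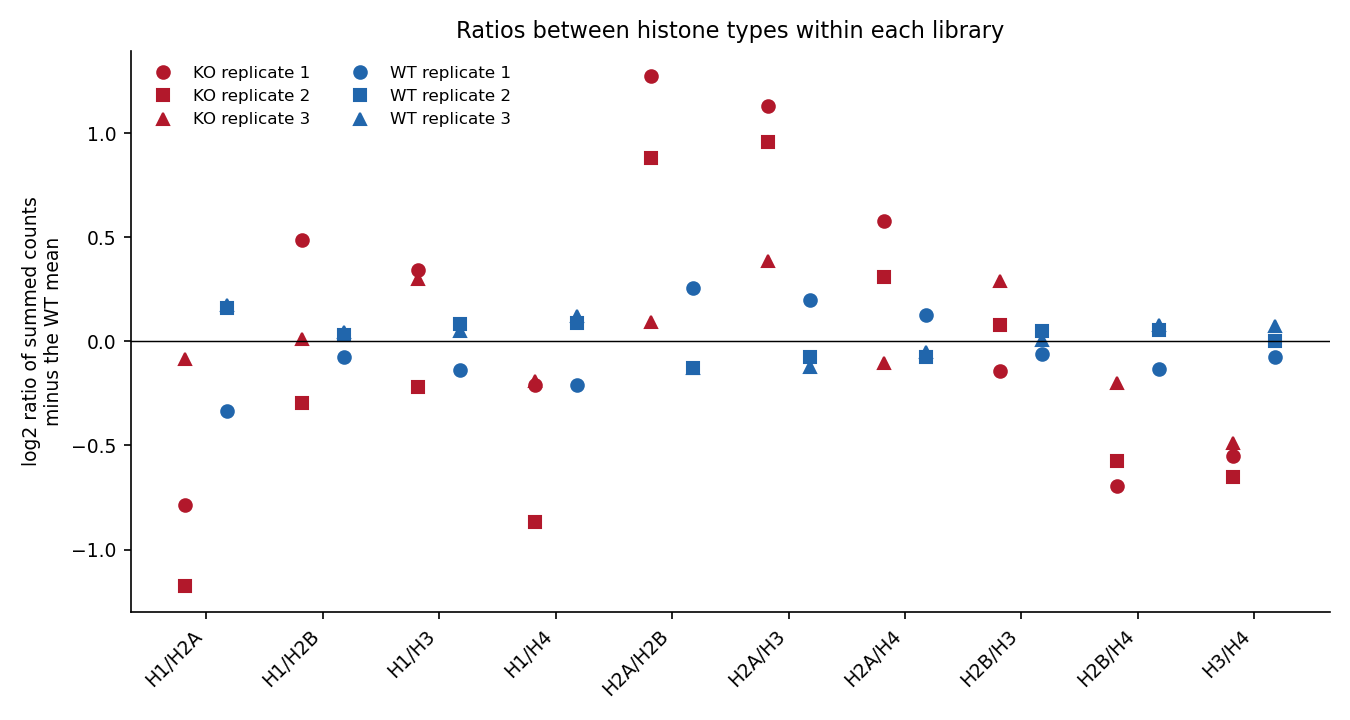
Log2 ratio of summed counts between each pair of histone types in every library, set to 0 at the WT mean, with KO to the left of WT. H2A over H3 lies wholly above WT in KO, H2B over H4 and H3 over H4 lie wholly below it, and the other 7 ratios overlap.

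Genes that act with the histone genes were read from lists of known roles. Of 19 genes of histone mRNA transcription and processing, 2 were called higher and 2 lower with TMM (median log2 fold change -0.11). All genes tested gave 17.2% higher and 14.4% lower. With total counts 0 were called higher and 18 lower, against 4.23% and 70.7% of all genes. Slbp, which encodes the protein that binds the stem-loop, had 104, 101 and 111 CPM (TMM) in KO, against 69.5, 80.4 and 77.6 CPM in WT. The groups did not overlap, with a log2 fold change of 0.47 (SE 0.08 and adjusted p = 0.00158, edgeR) with TMM and -0.66 with total counts. Npat, which encodes the coactivator of histone gene transcription, averaged 4 ± 0.711 CPM in KO and 5.17 ± 0.890 CPM in WT (SD, n = 3 each) and was not called (-0.38, adjusted p = 0.189, edgeR). Lsm10, which encodes a protein of the U7 particle, fell to 29.8 ± 0.485 CPM in KO, against 47.9 ± 5.29 CPM in WT (SD, n = 3 each), by 0.69 on the log2 scale (adjusted p = 0.000463, edgeR).

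Of 26 chaperone and histone supply genes, 9 were called higher and 4 lower with TMM (median 0.02), against 17.2% and 14.4% of all genes. With total counts 1 was called higher and 24 lower (median -1.11), against 4.23% and 70.7% of all genes. Npm1, a nucleolar histone chaperone gene, had a log2 fold change of 1.26 with TMM (adjusted p = 2.95e-07, edgeR) and 0.13 with total counts. Rbbp4 (0.96) and Set (0.86) were called higher with TMM and had log2 fold changes of -0.17 and -0.27 with total counts. The 4 called lower, named after their values were seen, were the H3 and H4 chaperone genes Asf1a (-1.04 with TMM), Chaf1a (-0.72) and Asf1b (-0.50) and Mms22l (-0.63), whose protein acts with Tonsl at replication forks. Of 28 S phase genes 12 were called higher and 2 lower with TMM (median 0.16), against 17.2% and 14.4% of all genes. With total counts 0 were called higher and 28 lower (median -0.97), against 4.23% and 70.7% of all genes. Mcm6, a subunit of the replicative helicase and the S phase gene with the highest log2 fold change, had 299, 316 and 320 CPM (TMM) in KO, against 176, 183 and 188 CPM in WT, a log2 fold change of 0.77 with TMM and -0.36 with total counts. KO replicate 3 was the highest KO library for Mcm6 and the lowest for the H2A sum. The log2 ratio of summed histone to summed Mcm2 to Mcm7 counts was 1.12, 0.79 and -0.07 in KO, against 0.14, -0.35 and -0.30 in WT, and the groups overlapped (difference 0.78, exact permutation p = 0.2).

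The replication-independent variants, most of whose mRNAs are polyadenylated, gave 6 genes called higher and 1 lower of 10 with TMM (median 0.89). All genes tested gave 17.2% higher and 14.4% lower. With total counts 1 variant was called higher and 4 lower (median -0.25), against 4.23% and 70.7% of all genes. H2ax, the variant phosphorylated at DNA breaks, had 177, 170 and 102 CPM in KO, against 57.7, 49.8 and 51.5 CPM in WT (log2 fold change 1.5, edgeR adjusted p = 0.000235, and 0.37 with total counts). H2aj had 1671, 1361 and 570 CPM in KO, against 750, 446 and 444 CPM in WT, with KO replicate 3 low as in the H2A genes of the clusters. H3f3a, which encodes H3.3, averaged 302 ± 13.5 CPM in KO and 99.4 ± 0.925 CPM in WT (SD, n = 3 each) and was higher in KO under both scalings (1.60 and 0.47). H1f0, the linker variant of cells that leave the cycle, had 0.823, 1.13 and 1.46 CPM in KO, against 5.28, 5.15 and 4.27 CPM in WT, and fell by 2.12 with TMM and by 3.25 with total counts. Of 9 tested RNAs without a poly(A) tail other than histone mRNAs, 0 were called with TMM (median -0.34), against 31.7% of all genes. With total counts 7 were called lower, against 70.7% of all genes.

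A further 9 histone rows carry older symbols and fall outside the name rule, 4 for H2A, 3 for H2B and 2 for H4. The H2A row Hist1h2ap alone had 72609, 49653 and 18473 counts in KO, against 39640, 34376 and 30975 counts in WT, close to the 76330, 55076 and 22391 counts in KO and 42114, 36339 and 38835 counts in WT of the 12 H2A genes together. Its log2 fold change was 1.51 (SE 0.35, adjusted p = 0.00964, edgeR) with TMM. With these rows added, chosen after seeing the data, the TMM log2 fold change was 1.48 for H2A, 0.57 for H2B and 1.08 for H4, and with total counts it was 0.35, -0.57 and -0.06.

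In the authors' deposited table, 24 of the 51 histone genes were classed as up, 0 as down and 27 as stable. Of the 51, 25 had an adjusted p under 0.05 with a log2 fold change above 0, and 1 with one below 0. The shares of all genes in these classes were not counted here.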

How the data were processed

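RNA of 6 libraries (3 KO, 3 WT) was analysed from 1 deposited table. Its raw read counts per gene were deposited by the authors. Per the submitters' processing notes, the tools were HISAT2 2.2.1 and featureCounts 2.0.1 besides fastp 0.22.0 and DESeq2 1.32.0, with mm10 as the build. Their options and the use of strand in counting are not given in the sources used here. A second set of columns, deposited by the authors without a named unit, was taken as FPKM from its values. The authors' deposited log2 fold changes and adjusted p-values come from their own comparison.

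Counts were fitted across all genes with edgeR 4.0.16 (R 4.3.3, quasi-likelihood test, TMM scaling, filterByExpr, Benjamini-Hochberg adjusted p under 0.05, 15474 genes). Each type sum replaced its members in a refit. The same fit on total counts, RLE and upper-quartile scaling, an offset for exon length and GC content, DESeq2 1.42.0, no filter and each library left out were the alternatives. The edgeR fit was tested on simulated counts in which a small set of genes changed by known folds, equally up and down. Those counts were built without a shift in composition between KO and WT. They therefore cannot decide between TMM and total counts. Ratios between types were compared by two-sided exact permutation tests. Genes, transcripts and stem-loops came from GENCODE vM21 (18457 of 18491 IDs matched) and promoters from RefSeq (GRCm38.p6). Counts limit precision, and near-copies can exchange reads.

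Named members were the 5 of highest mean CPM in each type and those with the highest and lowest fold change. The members and lists were chosen with earlier results of these data known.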

Additional observations from a re-analysis of the deposited data

How the results depend on the processing

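Direction and call depended on scaling, while under RLE, upper quartile, DESeq2 and no filter no sum run with them gained or lost its call. In that order 28, 27, 27 and 25 histone genes were called higher, against 27 in the main fit. Of all genes 2754, 2648, 2830 and 2532 were called higher, against 2669 in the main fit. Among named genes Cdk9 lost its call with RLE, Cdk9 and H2aj with DESeq2, and Cdk9, H1f5 and H3c8 with no filter. With total counts 655 genes were higher and 10937 lower, with 2 histone genes higher and 14 lower, and the sums came to -0.37 for H1, 0.36 for H2A, -0.47 for H2B, -0.53 for H3, 0.037 for H4, 0.17 for all types, 0.18 for chromosome 13 and -0.27 for chromosome 3 (log2 fold changes here and below). The same scaling turned H1f1 to -0.054, H1f4 to -0.74, H1f5 to -0.80, H2ac13 to -0.11, H2bc3 to -0.13, H2bc4 to -0.22, H2bc8 to -0.42, H2bc11 to -1.03, H2bc12 to -1.10, H3c4 to -0.57, H3c6 to -0.092, H3c8 to -0.30, H4c3 to -0.92 and H4c9 to -0.53. It turned Anp32e to -0.35, Cenpa to -0.67, H2az2 to -0.98, Macroh2a2 to -0.50, Mcm3 to -0.67, Mcm5 to -0.74, Mcm6 to -0.36, Rbbp4 to -0.17, Rrm2 to -0.42, Set to -0.27, Slbp to -0.66 and Srrt to -0.79. The length and GC offset left 10 histone genes higher and 6 lower, against 2316 and 2363 of all genes. It took H2B to 0.066, H3 to 0.056 and chromosome 3 to 0.35. With it H1f5 came to -0.47, H2ac13 to -0.0071, H2bc3 to -0.048, H2bc8 to -0.23, H2bc11 to -0.95, H2bc12 to -1.03, H3c8 to -0.16, H4c3 to -0.52, H4c9 to -0.23, H2az2 to -0.036 and Macroh2a1 to 0.014.

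Same-numbered libraries correlated at 0.041, -0.005 and 0.048 in their deviations from the group means, and the other pairs at -0.075 to 0.029. With 3 libraries per group these values cannot decide whether replicate numbers pair the samples. A replicate block gave 2467 genes higher and 1906 lower, changed no call on a sum, and turned H1f4 to -0.40. The block with the length and GC offset gave 11 histone genes higher and 5 lower, against 2136 and 2021 of all genes. It also gave H2B 0.063, H3 0.038 and chromosome 3 0.33, and H1f4 -0.48, H1f5 -0.47, H2ac13 -0.024, H2bc3 -0.063, H2bc8 -0.23, H2bc11 -0.95, H2bc12 -1.03, H3c8 -0.15, H4c3 -0.51, H4c9 -0.23, H2az2 -0.032 and Macroh2a1 0.012.

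With each library left out in turn, 2226 to 2542 genes were higher and 1356 to 2142 lower (1356 without WT replicate 2 and 1419 without WT replicate 3), with 20 to 30 histone genes higher and 1 lower. The sums ranged from 0.49 to 0.91 for H1, 1.18 to 1.80 for H2A, 0.63 to 0.74 for H2B, 0.46 to 0.76 for H3, 1.04 to 1.35 for H4, 1.05 to 1.57 for all types, 1.05 to 1.58 for chromosome 13 and 0.68 to 1.08 for chromosome 3. Ratio differences ranged from -0.98 to -0.44 for H1/H2A, -0.14 to 0.25 for H1/H2B, 0.04 to 0.32 for H1/H3, -0.54 to -0.20 for H1/H4, 0.49 to 1.08 for H2A/H2B, 0.67 to 1.05 for H2A/H3, 0.10 to 0.44 for H2A/H4, -0.031 to 0.18 for H2B/H3, -0.63 to -0.39 for H2B/H4, -0.60 to -0.52 for H3/H4 and 0.53 to 1.12 for all types over Mcm2 to Mcm7. Signs turned within these ranges for H1f4 (-0.68 without KO replicate 1 to 0.99 without KO replicate 2), H2bc12 (-0.073 without WT replicate 2 to 0.21 without WT replicate 1), H3c14 (-0.69 without KO replicate 1 to 0.10 without KO replicate 3) and H4c14 (-0.44 without KO replicate 2 to 0.11 without KO replicate 1).

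Without the most abundant gene of each type H1/H4 came to 0.36 and H2B/H3 to -0.15. With the older-symbol genes, added after seeing the data, H2B/H3 came to -0.021, and total counts then gave -0.37 for H1, 0.35 for H2A, -0.57 for H2B, -0.53 for H3 and -0.058 for H4. The cause of these shifts was not tested.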
